A study of Homo sapiens with 6 samples.

Results

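Translation initiation factors are the proteins that bring the small ribosomal subunit, the initiator tRNA and a messenger RNA together at a start codon, and the 4E-BPs are small proteins that hold back the cap-binding factor eIF4E. Members were all protein-coding genes whose symbol starts with EIF1, EIF2, EIF3, EIF4, EIF5 or EIF6, without the EIF2AK kinases and Y-linked genes. This gave 50 of 29816 genes in the deposited table. The rule uses names alone, although the family was picked with earlier results of these data known. The cells were KYSE-150, a human line derived from a squamous carcinoma of the esophagus. In 3 libraries the cells had received the negative control small interfering RNA (si-NC), and in 3 they had received one aimed at circTMEM45A (si-circTMEM45A), a circular RNA made from the TMEM45A gene. All 6 libraries share the line and the polyA selection of RNA. The labels do not say that replicates were separate cultures, so every p-value reflects library-to-library spread that may be purely technical.

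Initiation begins with eIF2, which carries the initiator tRNA as a complex with GTP and is recharged by the exchange factor eIF2B. eIF1, eIF1A, eIF3 and eIF5 bind the small subunit, eIF4F (the cap-binding eIF4E, the scaffold eIF4G and the helicase eIF4A) loads it on the capped mRNA, and eIF5B joins the large subunit. The 4E-BPs compete with eIF4G for eIF4E and let go when mTORC1 phosphorylates them. In tumours, eIF4F and the 4E-BPs are studied as a point where growth signals reach translation. Only RNA was measured here, so protein amounts and 4E-BP phosphorylation are not part of these data. In bulk RNA, fewer cells of a kind and less RNA per cell cannot be told apart.

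Levels are FPKM, a fragment count divided by gene length and library size as the authors deposited it, and the libraries held 16636248 to 17323964 gene-assigned reads. TMEM45A itself was 2.90 to 3.26 FPKM in the si-NC libraries and 1.91 to 2.34 in the si-circTMEM45A libraries, but a gene-level value from polyA RNA mostly counts the linear transcript and does not check the circle. Of 10 squamous epithelial markers, 9 were at 1 FPKM or more in all 6 libraries, the exception being KRT6A. Of the markers of other cell types in the table, this held for 1 of 3 of fibroblasts (COL1A1), 0 of 4 of columnar epithelium, 0 of 3 of endothelium and 0 of 3 of immune cells. Among the immune markers, PTPRC and CD68 had at most 2 reads in a library, and CD3E had 22 to 41. The endothelial marker CDH5 had 59 to 125 reads per library, at 0.583 to 0.963 FPKM with si-NC and 0.877 to 1.19 with si-circTMEM45A. The summed level of the squamous markers was 669 to 713 FPKM with si-NC and 550 to 599 with si-circTMEM45A, and its part in the changes of the initiation factors was not tested.

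Of the 50 genes, 47 reached 1 FPKM in at least 3 libraries and were tested with limma on log2(FPKM + 1), with Benjamini-Hochberg adjustment over all 12676 tested genes and a threshold of 0.05. Of these 47, 3 rose and 5 fell with si-circTMEM45A and 39 did not pass. The share called was 17.0%, against 18.8% of all tested genes (11.1% higher and 7.64% lower), so the family as a whole was called about as often as any gene. The median log2 fold change was 0.02 for the 47 genes and 0.03 for all tested genes. With median-of-ratios scaling 9 of the 47 were called, beside 17.8% of all genes, and with limma voom on recovered reads 13, beside 26.6% of all genes. Of the 5 that fell, 3 were eIF4F genes or partners (EIF4G2, EIF4A2, EIF4B) and 2 were 4E-BPs (EIF4EBP2, EIF4EBP1). The 3 that rose were the cap-binding homolog EIF4E2, the ribosome anti-association factor EIF6 and the eIF2B subunit EIF2B1. The groups did not overlap for 21 of the 47 genes, 8 of them the called ones, against 39.2% of all tested genes.

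**Figure D1:**
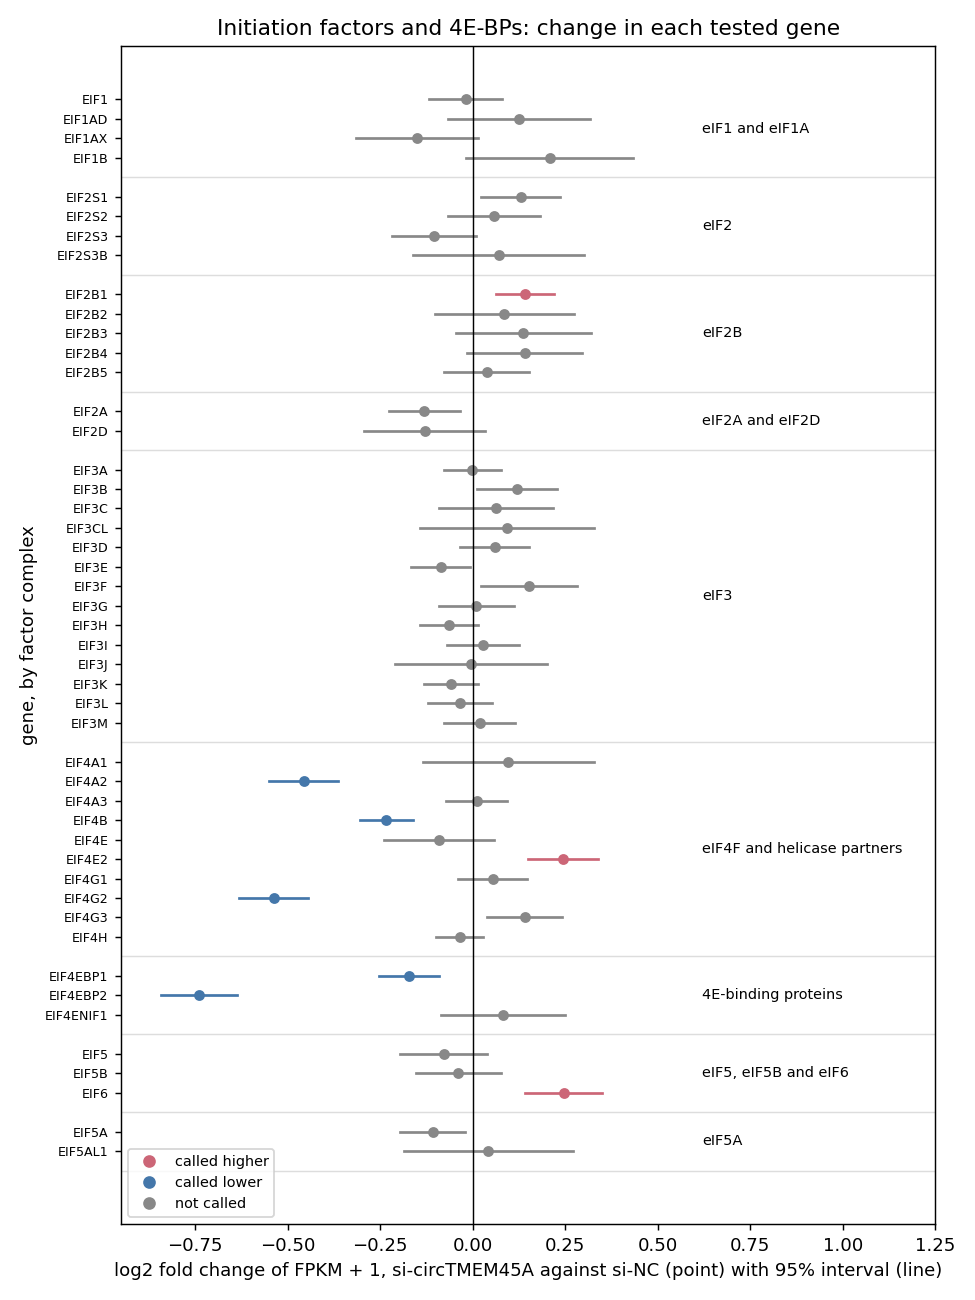
Log2 fold change of FPKM + 1 (x axis, si-circTMEM45A against si-NC, points) with the 95% limma interval (lines) for the 47 tested genes (y axis), grouped by factor complex and coloured by the limma call. The 5 genes called lower all lie among the eIF4F genes, their partners and the 4E-binding proteins, while the 14 eIF3 genes stay between -0.09 and 0.15.

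Among the 4E-BPs the largest change of the family was in EIF4EBP2 (ENSG00000148730, chromosome 10, 70404379 to 70428618, GRCh38, plus strand), which encodes 4E-BP2. Its FPKM was 26.4, 25.4 and 24.9 in the si-NC libraries and 14.8, 14.4 and 15.6 in the si-circTMEM45A libraries. Every si-circTMEM45A library lay far below every si-NC library. The mean went from 25.6 ± 0.75 to 14.9 ± 0.61 FPKM (SD, n = 3), a log2 fold change of -0.74 ± 0.04 (SE; adjusted p = 0.00053 in limma), which places EIF4EBP2 at rank 37 of the 969 genes called lower, counted from the largest fall. EIF4EBP1 on chromosome 8, which encodes 4E-BP1, was the more abundant of the pair. Its FPKM was 108, 111 and 113 with si-NC and 94.98, 98.0 and 101 with si-circTMEM45A. The groups did not overlap, but the change was small, with a log2 fold change of -0.17 ± 0.03 (SE; adjusted p = 0.0171 in limma), and the call was lost in limma when replicate 2 (adjusted p = 0.0506) or 3 (0.0603) of si-NC, or replicate 2 of si-circTMEM45A (0.0532), was left out, within a range of 0.0102 to 0.0603 over 15 alternatives. EIF4ENIF1, the 4E-transporter that carries eIF4E into the nucleus, was 3.84 ± 0.30 and 4.12 ± 0.28 FPKM (SD, n = 3; limma adjusted p = 0.465). EIF4EBP3 stayed under the filter, at 0.512 to 1.46 FPKM with si-NC and 0.337 to 0.752 with si-circTMEM45A, and rested on 4 to 17 reads per library.

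In the eIF4F group, which here includes the cofactors EIF4B and EIF4H and the helicase homolog EIF4A3, 1 gene rose and 3 fell of 10 tested, where 11.1% of all tested genes were called higher and 7.64% lower. The steepest fall was in EIF4G2 (ENSG00000110321, chromosome 11, 10797050 to 10809110, GRCh38, minus strand). It encodes DAP5, an eIF4G homolog that lacks the eIF4E-binding region and serves cap-independent and alternative initiation. Its FPKM was 130, 122 and 123 with si-NC and 88.9, 83.5 and 85.4 with si-circTMEM45A. All si-circTMEM45A libraries were well under the lowest si-NC library, and the log2 fold change was -0.54 ± 0.04 (SE; adjusted p = 0.00078 in limma). The canonical scaffold EIF4G1 did not pass, at 139, 127 and 131 against 136, 137 and 138 FPKM. Its groups overlapped, and its log2 fold change was 0.05 ± 0.04 (SE; 95% interval -0.04 to 0.15; limma adjusted p = 0.384). A further homolog, EIF4G3, went from 12.4 ± 0.51 to 13.8 ± 0.18 FPKM (SD, n = 3) without overlap and did not pass (limma adjusted p = 0.0614), but did with limma voom (0.0258).

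EIF4A2, a paralog of the eIF4F helicase (ENSG00000156976, chromosome 3, 186783205 to 186789900, GRCh38, plus strand), was 65.9, 72.0 and 68.1 FPKM with si-NC and 50.1, 49.6 and 49.6 with si-circTMEM45A. The 3 si-circTMEM45A libraries were nearly alike and below every si-NC library, with a log2 fold change of -0.46 ± 0.04 (SE; adjusted p = 0.00123 in limma). EIF4B, an RNA-binding protein that stimulates the helicase and is phosphorylated by S6 kinase, was 80.2, 81.1 and 79.6 FPKM with si-NC and 68.4, 66.9 and 69.2 with si-circTMEM45A. Its replicates were tight in both groups, and the fall of 0.23 on the log2 scale was modest (SE 0.03; limma adjusted p = 0.00395). The other helicase cofactor, EIF4H, was the most abundant gene of the family, at 321 ± 3.30 and 313 ± 1.49 FPKM (SD, n = 3), with no call (limma adjusted p = 0.409). EIF4A3, the helicase of the exon junction complex, was 37.4 ± 0.86 and 37.7 ± 0.65 FPKM (SD, n = 3; limma adjusted p = 0.865).

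EIF4E2, which encodes 4EHP, a cap-binding homolog that does not bind eIF4G and represses translation, rose (ENSG00000135930, chromosome 2, 232550052 to 232583644, GRCh38, plus strand). Its FPKM was 10.7, 11.1 and 10.8 with si-NC and 13.3, 12.7 and 13.1 with si-circTMEM45A. The groups were separate, with a log2 fold change of 0.24 ± 0.04 (SE; adjusted p = 0.00807 in limma). EIF4E, the cap-binding factor itself, was 3.37, 3.06 and 3.17 FPKM with si-NC and 3.06, 2.89 and 2.87 with si-circTMEM45A. The lowest si-NC library and the highest si-circTMEM45A library were nearly equal, and the gene did not pass (log2 fold change -0.09 ± 0.06 (SE); adjusted p = 0.353 in limma). EIF4E3, a further cap-binding homolog, stayed below the filter at 0.197 to 0.477 FPKM over all 6 libraries.

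**Figure D2:**
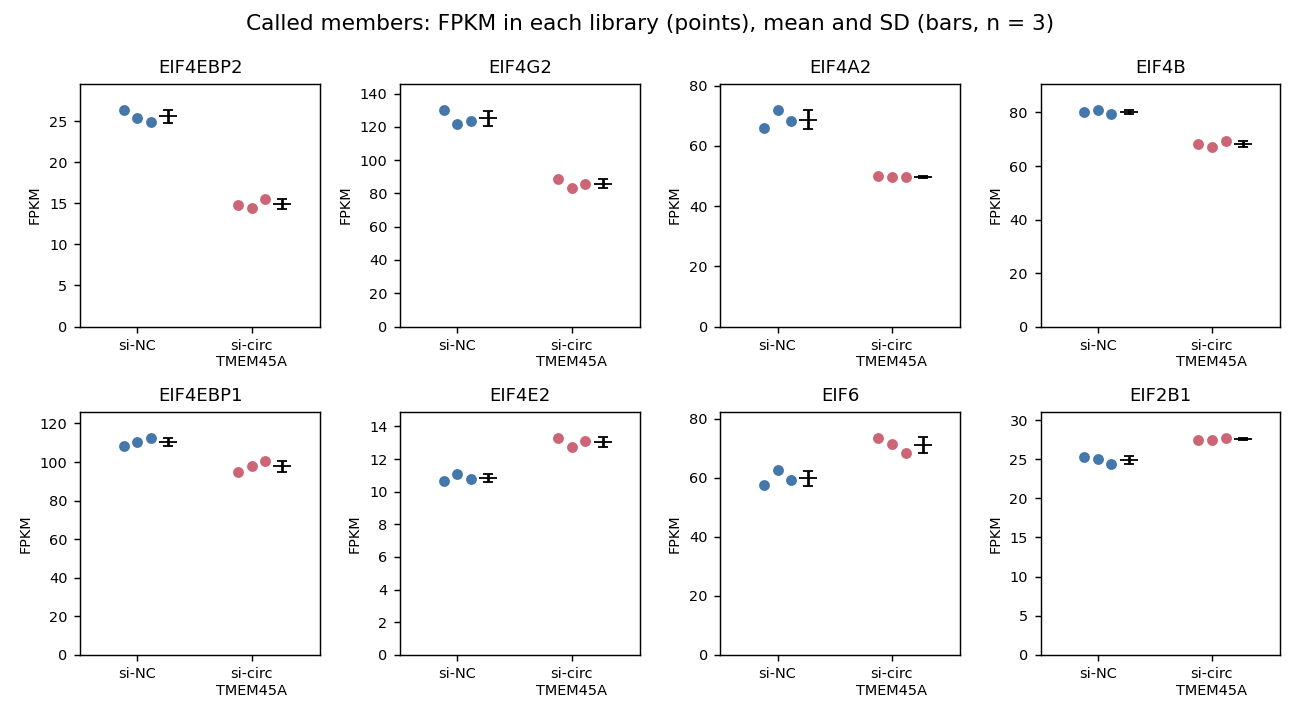
FPKM (y axis, from 0) of the 8 called genes in each si-NC library (blue points) and each si-circTMEM45A library (red points), with the mean and SD of 3 libraries beside them (bars). The points of the groups are apart in every panel, and the ratio of the means was farthest from 1 in EIF4EBP2 (25.6 against 14.9 FPKM) and nearest to 1 in EIF2B1 (24.9 against 27.6 FPKM).

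For some genes the listed level may not be the abundance of the mRNA. EIF4A1, the main eIF4F helicase, was listed at 1.38, 1.32 and 1.15 FPKM with si-NC and 1.48, 1.52 and 1.34 with si-circTMEM45A, from 104 to 136 reads per library. Of its 5316 annotated exon bases, 2583 are shared on the same strand with other annotated genes, among them the read-through gene SENP3-EIF4A1, which had at most 0.151 FPKM. The pseudogene EIF4A1P10 was listed at 13.1 and 14.7 FPKM on average with si-NC and si-circTMEM45A, above its parent. EIF3C and its near-identical copy EIF3CL were listed at 3.04 ± 0.20 and 1.36 ± 0.16 FPKM with si-NC (SD, n = 3), well under the other eIF3 subunits. EIF4E has a union exon length of 14067 bases, and its pseudogene EIF4EP2 was listed at 9.82 and 9.58 FPKM. How reads that fit several genes were counted is not given in the sources used here, and neither its part nor that of the exon length in these values was tested. EIF5AL1 and EIF2S3B, near-copies of EIF5A and EIF2S3, carry the same doubt at 3.35 and 2.97 FPKM with si-NC. The largest other same-strand overlaps covered 73.4% of the exon bases of EIF4EBP3, 41.1% of EIF3L, 17.4% of EIF6 and 10.5% of EIF4A2. Their part in the listed levels was not tested.

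Of 9 pseudogenes of these genes that reached the filter, 8 had no call and 1 was called, where 18.8% of all tested genes were. EIF4HP1 fell from 34.6 to 30.5 FPKM (log2 fold change -0.17 ± 0.04 (SE); adjusted p = 0.0228 in limma), while EIF4H did not pass. Beside the genes that fell, EIF4A2P2 and EIF4EBP2P2 stayed at or under 0.355 FPKM in every library, and EIF4BP6 and EIF4BP7 were at or under 5.14.

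Ratios within a library do not depend on how libraries are scaled. Of 10 pairs of related genes listed for this purpose, 8 had both genes at 1 FPKM or more in every library, and EIF4E/EIF4E3 and EIF5A/EIF5A2 did not. The EIF4G1 to EIF4G2 ratio was 1.06, 1.04 and 1.06 with si-NC and 1.53, 1.65 and 1.62 with si-circTMEM45A. The pair was near parity with si-NC, and EIF4G1 led in each si-circTMEM45A library. The EIF4EBP1 to EIF4EBP2 ratio was 4.10, 4.35 and 4.51 against 6.40, 6.82 and 6.47, so 4E-BP1 mRNA took a larger share of the pair. The EIF4E to EIF4E2 ratio fell from 0.295 ± 0.02 to 0.225 ± 0.0057 (SD, n = 3), subject to the doubt on the level of EIF4E. The EIF4EBP1 to EIF4E ratio, under the same doubt on EIF4E, overlapped between groups, at 32.2 to 36.1 and 31.0 to 35.1 (exact two-sided permutation p = 0.5, n = 3). The other 7 pairs were separate, EIF4A1/EIF4A2, EIF4G1/EIF4G3, EIF1/EIF1B and EIF4B/EIF4H among them, with EIF4A1/EIF4A2 subject to the doubt on the level of EIF4A1. Each gave an exact two-sided permutation p = 0.1, the smallest that 3 against 3 libraries allow, and 0.114 after Benjamini-Hochberg adjustment over the 8 pairs, so no pair could pass.

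**Figure D3:**
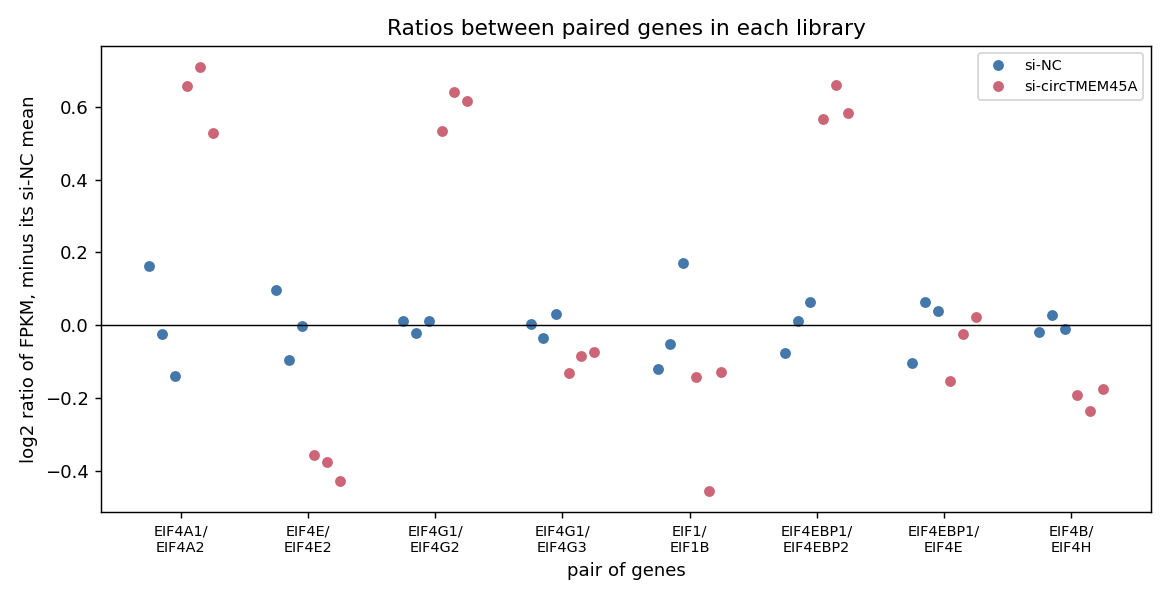
Log2 ratio of FPKM between paired genes in each library, minus the mean of the si-NC libraries (y axis), for 8 pairs (x axis). The si-circTMEM45A points (red) lie above every si-NC point (blue) for EIF4A1/EIF4A2 (with the doubt on the level of EIF4A1), EIF4G1/EIF4G2 and EIF4EBP1/EIF4EBP2, and overlap for EIF4EBP1/EIF4E (with the doubt on the level of EIF4E).

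eIF3, the largest initiation factor, which scaffolds the small subunit, had 0 called genes of 14 tested in limma, beside 18.8% of all tested genes. Of the 14, 3 had an unadjusted limma p under 0.05 (EIF3F, EIF3B and EIF3E), as had 15 of the 47 members. The share of all tested genes under that cutoff was not worked out, so these counts are no result about the family. Even after adjustment, 18.8% of all tested genes passed. The median log2 fold change of the 14 genes was 0.01, from -0.09 (EIF3E) to 0.15 (EIF3F), and no 95% interval reached beyond -0.21 or 0.33. EIF3A, the largest subunit, was 68.5, 67.2 and 68.3 FPKM with si-NC and 66.2, 69.1 and 68.7 with si-circTMEM45A. Its groups were interleaved, and its log2 fold change lay between -0.08 and 0.08 (95% interval). EIF3F, an MPN-domain subunit of the core, was 18.9, 18.9 and 21.4 FPKM with si-NC and 21.5, 22.2 and 22.4 with si-circTMEM45A. Replicate 3 of si-NC nearly met the si-circTMEM45A libraries. The gene did not pass (log2 fold change 0.15 ± 0.06 (SE); adjusted p = 0.101 in limma), but did without si-NC replicate 3 (0.0365). EIF3B, an RNA-binding subunit, also did not pass (limma adjusted p = 0.115), but did without si-circTMEM45A replicate 1 (0.0486). With limma voom, EIF3F (adjusted p = 0.0197) and EIF3B (0.0387) were both called higher.

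FPKM values across the eIF3 subunits were uneven. Leaving out EIF3C and EIF3CL, the highest of 12 subunits, EIF3I, exceeded the lowest, EIF3F, by 7.54 to 9.30 times in the si-NC libraries and 7.73 to 8.03 times in the si-circTMEM45A libraries, on the per-length FPKM scale. The union exon length was 1725 bases for EIF3I and 9431 for EIF3F. Their reads lay closer together, at 4718 to 5174 and 2962 to 3659 per library. The EIF3F pseudogene EIF3FP3 was listed at 10.7 and 12.3 FPKM on average with si-NC and si-circTMEM45A. Neither the part of exon length nor that of the pseudogene in this range was tested. EIF3I, a WD-repeat subunit, was 171 ± 8.23 and 174 ± 2.47 FPKM (SD, n = 3). EIF3J, the loosely bound subunit, was the least even of the set with si-circTMEM45A, at 39.7, 30.5 and 32.6 FPKM, while the si-NC libraries lay between 33.9 and 34.5. The summed FPKM of the 14 genes was 692 to 704 with si-NC and 700 to 707 with si-circTMEM45A.

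**Figure D4:**
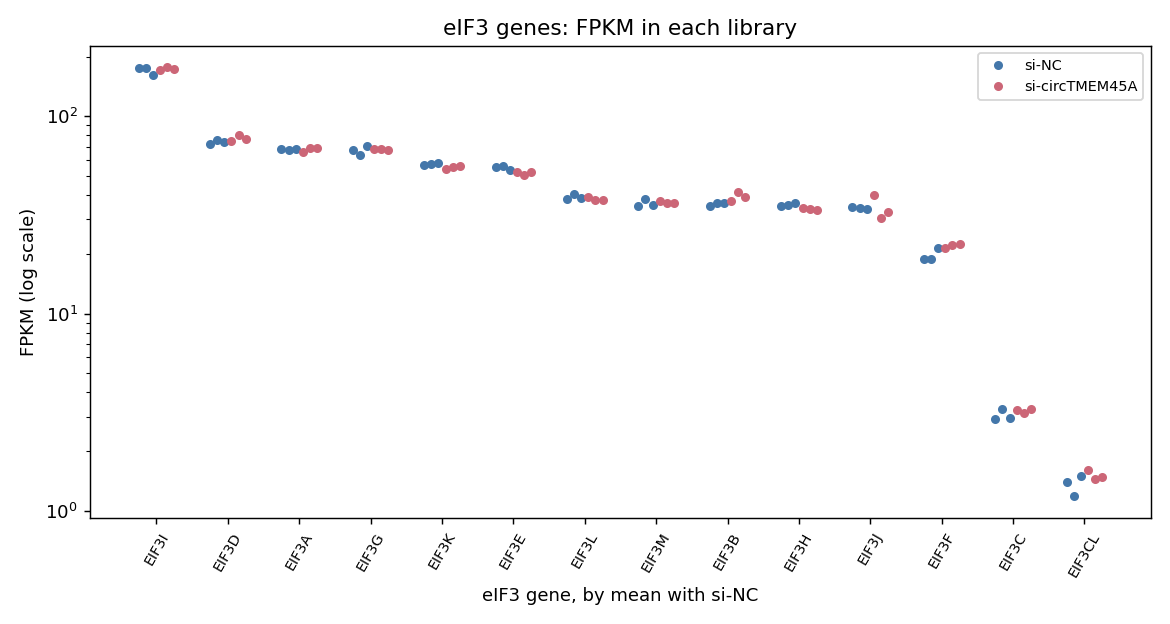
FPKM (y axis, log scale) of the 14 eIF3 genes (x axis, ordered by the si-NC mean) in each si-NC (blue) and si-circTMEM45A (red) library. The FPKM of the subunits spans a wide range with si-NC, from EIF3I at 171 (union exon length 1725 bases) to EIF3F at 19.7 (9431 bases). EIF3C and EIF3CL are lower still, and the groups lie close together within each gene.

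In eIF2 itself, 0 of 4 genes passed in limma, beside 18.8% of all tested genes. Only EIF2S1, the alpha subunit whose phosphorylation stops initiation under stress, had an unadjusted limma p under 0.05. How many of all tested genes lay under that cutoff was not worked out. EIF2S1 was 26.4, 27.1 and 25.2 FPKM with si-NC and 30.1, 28.2 and 28.1 with si-circTMEM45A. The groups did not overlap, and the log2 fold change was 0.13 ± 0.05 (SE; adjusted p = 0.0904 in limma, and 0.0445 with limma voom). The beta subunit EIF2S2 and the GTP-binding gamma subunit EIF2S3 were the abundant ones, at 111 ± 5.54 and 111 ± 6.80 FPKM with si-NC (SD, n = 3), against 116 ± 6.42 and 103 ± 2.38 with si-circTMEM45A. EIF2A and EIF2D, which deliver initiator tRNA outside the eIF2 pathway, did not pass. EIF2A was 26.0, 26.8 and 27.5 FPKM with si-NC and 25.1, 23.5 and 24.4 with si-circTMEM45A, without overlap. Its mean went from 26.7 ± 0.75 to 24.3 ± 0.78 FPKM (SD, n = 3; limma adjusted p = 0.0645), and with median-of-ratios scaling EIF2A was called (0.0266). EIF2D was 4.36, 4.87 and 4.41 against 3.71, 4.18 and 4.32 FPKM, without overlap.

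In eIF2B, the exchange factor that recharges eIF2, all 5 subunits had a log2 fold change above 0, from 0.04 to 0.14, as had 7187 of all 12676 tested genes and 26 of the 47 members. Of the 5, 1 was called, beside 18.8% of all tested genes. EIF2B1, the regulatory alpha subunit (ENSG00000111361, chromosome 12, 123620406 to 123633766, GRCh38, minus strand), was 25.3, 24.99 and 24.4 FPKM with si-NC and 27.4, 27.5 and 27.7 with si-circTMEM45A. The groups were separate but close, with a log2 fold change of 0.14 ± 0.03 (SE; adjusted p = 0.0289 in limma). This call was the least firm of the 8. It was lost with median-of-ratios scaling (limma adjusted p = 0.0858), with no variance trend (0.0607) and with the replicate number as a block (0.0729). Leaving out any 1 si-NC library also ended it (0.0613, 0.0731 and 0.0978 in limma for replicates 1, 2 and 3), as did leaving out replicate 2 (0.0759) or 3 (0.0927) of si-circTMEM45A, within a range of 0.0238 to 0.0978. The catalytic subunit EIF2B5 was 11.1, 11.6 and 11.99 FPKM with si-NC and 12.2, 12.2 and 11.3 with si-circTMEM45A. Its groups overlapped, and its log2 fold change was 0.04 ± 0.05 (SE; adjusted p = 0.631 in limma).

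Among the factors that act at start codon choice and subunit joining, EIF6 rose. It encodes the protein that keeps free large subunits from joining too early and takes part in their assembly (ENSG00000242372, chromosome 20, 35278911 to 35284985, GRCh38, minus strand). Its FPKM was 57.5, 62.5 and 59.4 with si-NC and 73.5, 71.4 and 68.3 with si-circTMEM45A. The si-circTMEM45A libraries were all above the si-NC libraries, with a log2 fold change of 0.25 ± 0.04 (SE; adjusted p = 0.0113 in limma). EIF5, the GTPase activator of eIF2, and EIF5B, the subunit-joining GTPase, did not pass (limma adjusted p = 0.318 and 0.624). EIF1, the scanning factor, was 70.6 ± 3.29 and 69.6 ± 1.43 FPKM (SD, n = 3), and its paralog EIF1B had the largest difference of the eIF1 and eIF1A group, at 13.0, 13.6 and 11.2 against 14.0, 16.7 and 13.4 FPKM. The EIF1B groups overlapped (log2 fold change 0.21 ± 0.10 (SE); adjusted p = 0.175 in limma). EIF1AX, the X-linked eIF1A gene, and EIF1AD, an eIF1A-related gene, also did not pass, although EIF1AX was called lower without si-circTMEM45A replicate 1 (limma adjusted p = 0.0445).

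EIF5A, the hypusine-bearing factor that helps elongation past difficult stretches, was 164, 154 and 159 FPKM with si-NC and 152, 144 and 147 with si-circTMEM45A. The groups did not overlap and the log2 fold change was -0.11 ± 0.04 (SE), which did not pass (limma adjusted p = 0.0861) but did with median-of-ratios scaling (0.0445) and with limma voom (0.0447). EIF5A2, its paralog, stayed under the filter at 0.475 to 0.988 FPKM in the 6 libraries. The 3 genes under the filter in this family were EIF4EBP3, EIF4E3 and EIF5A2.

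The 3 genes with the largest falls were compared for short words in their 3′ UTRs, because 4 words of 7 bases had been picked from these data in an earlier analysis. The first is TGAAAGC, which overlaps the word GAAAGCA, and the next is CCTGATC, which overlaps the word CTGATCA. They were picked on values that include these genes, so their presence here is a description with no test. The words were searched on the transcript strand in the longest 3′ UTR, at least 50 bases, of a complete coding transcript in GENCODE 29. Examples of sites in the genes of largest fall are printed as transcript sequence, with the word or merged overlapping words in capitals.
EIF4EBP2 site at base 835 of its 3′ UTR (chr10:70422573-70422597, plus strand): gtacttcaaGAAAGCAaagtgattt
EIF4EBP2 site at base 918 (chr10:70422656-70422680, plus strand): tgggtaaggCCTGATCAtagtattc
EIF4G2 site at base 579 (chr11:10797222-10797246, minus strand): tgcacaaaaCTGATCAgttttgaga
EIF4A2 site at base 434 (chr3:186789694-186789718, plus strand): atttttttaGAAAGCAtttgaatgc

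EIF4EBP2 has a 3′ UTR of 6871 bases, against 766 for EIF4G2 and 631 for EIF4A2, so longer sequence alone gives it more room for a match. The other called genes, EIF4B, EIF4EBP1, EIF4E2, EIF6 and EIF2B1, held none of the words in the searched 3′ UTR. Over the family, 13 of 50 genes (26.0%), tested or not, held at least 1 word, against 3473 of 10271 tested protein-coding genes (33.8%). The median searched 3′ UTR was 909 bases in the family and 1403 in the tested protein-coding genes, so the family had less room for a match. The 12 tested genes with a word had log2 fold changes from -0.74 to 0.09, with a median of -0.10, and 3 of them were called lower, where 7.64% of all tested genes were. Genes with a word that were not called included EIF4E, with 3 sites, EIF5, EIF3A and EIF3M. The 35 tested genes without a word had a median of 0.06, with 3 called higher and 2 lower. Because the words were picked on values that include these genes, neither the counts nor the medians test the words. The share called lower among all tested genes with a word was not worked out.

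Many mRNAs of the translation machinery begin with a terminal oligopyrimidine (TOP) tract, a C followed by a run of C and T, through which mTORC1 controls their translation. In RefSeq start regions (GRCh38.p14, 250 bases before to 50 after each start), 42 of the 50 genes had an entry. A C exactly at the annotated start, followed by at least 4 bases that were C or T, was found on the gene's strand in 10 of these 42 (23.8%). The share was 5.73% of 8513 tested protein-coding genes and 4.04% of all 27305 start regions. No test was made. The windows below run from 10 bases before the start to 19 after it, with the pyrimidine run around the start, from its first C, in capitals, and are shown because they hold EIF4A2 and EIF4B, which fell, beside genes with the same kind of start that did not pass.
EIF4A2 (chr3:186783567-186783596, plus strand): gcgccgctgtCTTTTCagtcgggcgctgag
EIF4B (chr12:53006446-53006475, plus strand): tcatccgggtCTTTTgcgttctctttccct
EIF2S3 (chrX:24054946-24054975, plus strand): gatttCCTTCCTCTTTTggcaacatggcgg
EIF2A (chr3:150546777-150546806, plus strand): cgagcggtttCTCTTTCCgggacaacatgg
EIF3D (chr22:36529147-36529176, minus strand): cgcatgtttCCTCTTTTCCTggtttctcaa
EIF3F (chr11:7987327-7987356, plus strand): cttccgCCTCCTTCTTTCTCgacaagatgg
EIF3K (chr19:38619178-38619207, plus strand): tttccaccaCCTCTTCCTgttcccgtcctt
EIF3M (chr11:32583821-32583850, plus strand): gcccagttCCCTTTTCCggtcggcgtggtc

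The remaining 2 genes with such a start were EIF2D and EIF2S3B. Of the 10 genes, 2 fell, 0 rose and 8 did not pass, and their log2 fold changes ran from -0.46 (EIF4A2) to 0.15 (EIF3F) with a median of -0.08. Of 29 tested genes without such a start, 3 rose and 2 fell, the latter being EIF4EBP2 and EIF4G2. EIF4EBP1, which also fell, had no start entry. When a run could begin up to 5 bases either side of the start, 17 of the 42 genes had one (40.5%). For tested protein-coding genes that share was 22.7%. EIF4EBP2 and EIF4G2 had a run by this looser rule, as had EIF4E2, which rose. Over all tested genes, 11.1% were called higher and 7.64% lower. The shares called among all tested genes with either kind of start were not worked out, and a link between start and change was not tested.

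**Figure D5:**
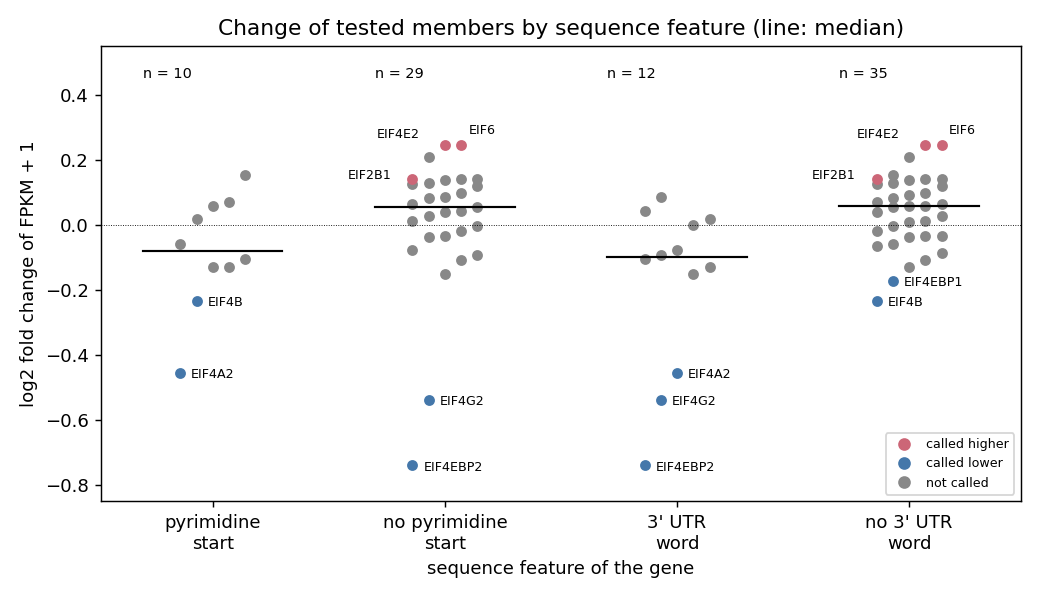
Log2 fold change of FPKM + 1 (y axis) of tested genes with and without a pyrimidine start (39 genes with a RefSeq start region) and with and without a 3′ UTR word (47 genes), with the median as a line and points coloured by call. EIF4EBP2, EIF4G2 and EIF4A2 lie in the column with a 3′ UTR word, whose words were picked on these data, and only EIF4A2 and EIF4B of the lower genes lie in the column with a pyrimidine start. EIF4EBP1, also lower, had no start region and lies in neither start column.

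Regulators and partners of these factors, from a list of 51 genes, gave 6 higher and 6 lower of 48 tested (median log2 fold change 0.02), with 36 not passing, where 18.8% of all tested genes were called (11.1% higher and 7.64% lower). Around eIF4F, CTIF, a scaffold of nuclear cap-binding-dependent translation, rose from 10.5 ± 0.11 to 15.7 ± 0.12 FPKM (SD, n = 3; limma adjusted p = 0.00064). PDCD4, an inhibitor of the eIF4A helicase, fell from 15.6 ± 0.55 to 12.4 ± 0.73 FPKM (limma adjusted p = 0.00951). MKNK2, a kinase that phosphorylates eIF4E, rose from 26.1 ± 0.96 to 34.7 ± 2.88 FPKM (limma adjusted p = 0.00777). All 3 kept their call in every one of the 15 alternatives.

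Of 8 mTORC1 and S6 kinase genes, RPS6KB1, the S6 kinase that phosphorylates EIF4B and PDCD4 proteins, fell from 5.83 ± 0.42 to 3.68 ± 0.21 FPKM (SD, n = 3; log2 fold change -0.54 ± 0.07 (SE); adjusted p = 0.00322 in limma), and the other 7 did not pass. On the eIF2 side, PPP1R15A (GADD34), the phosphatase subunit that reverses eIF2 alpha phosphorylation, rose from 20.9 ± 1.49 to 30.2 ± 2.38 FPKM (limma adjusted p = 0.00466). The double-stranded RNA-activated kinase EIF2AK2 (PKR) fell from 17.4 ± 0.89 to 14.2 ± 0.58 FPKM (limma adjusted p = 0.014), a call lost in limma when replicate 3 of si-circTMEM45A was left out (0.0517). The other 3 eIF2 alpha kinases did not pass. Among initiation partners, BZW1, an eIF5 mimic, rose from 23.4 ± 1.63 to 29.3 ± 1.11 FPKM (limma adjusted p = 0.0123). The other eIF5 mimic, BZW2, named after its values were seen, fell from 21.4 ± 0.35 to 19.35 ± 0.58 FPKM (limma adjusted p = 0.0469), a call lost in 9 of the 15 alternatives (range 0.0203 to 0.137), among them no filter, limma voom and each library left out except replicate 1 of si-circTMEM45A. DHX29, a helicase for structured leaders, rose from 12.02 ± 0.55 to 14.5 ± 0.81 FPKM (limma adjusted p = 0.0205), a call lost with no filter (0.0578) and when replicate 2 (0.0579) or 3 (0.065) of si-NC or replicate 3 of si-circTMEM45A (0.0517) was left out.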

How the data were processed

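Selection of polyA RNA on oligo(dT) beads came before random-primed cDNA synthesis, per the labels' protocols. The submitters' processing notes name cutadapt 1.9, HISAT2 2.2.1, TopHat2, StringTie 2.1.6, HTSeq and the build GRCh38, without roles, and no annotation release is stated there. The authors deposited FPKM for 29816 genes, 29593 of which were given a symbol. Positions and union exon lengths are those of GENCODE 29. Multiplying FPKM by length and total returned whole reads for 100% of values (relative tolerance 0.001), hence the read totals.

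The test was limma 3.58.1 (R 4.3.3) on log2(FPKM + 1), two-sided with a mean-variance trend, over the 12676 genes that reached 1 FPKM in 3 or more libraries. Benjamini-Hochberg adjusted p-values under 0.05 were called. Small values change less on this scale. The fit was run on simulated reads that gave every gene the same spread setting, which does not check error rates in these data. Members and lists were chosen with earlier results of these data known. Values in every library are given for called genes, for EIF4E, EIF4G1, EIF4A1, EIF2S1, EIF4EBP1, EIF4EBP2, EIF2B5 and EIF3A, and for the largest change in a complex, and of the regulators the 8 of smallest p were named. Genes named beyond this were chosen after their values were seen. Alternatives changed the pseudocount (0.1, 0.5), the filter (none, or 5 FPKM), the scaling (TPM, median-of-ratios), the variance trend, the replicate block and the libraries kept. Limma voom on recovered reads was added after seeing the data. Python 3.11.15, numpy 2.4.6, pandas 2.3.3 and matplotlib 3.10.9 were used. 1 sequence site is not reported here.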

Additional observations from a re-analysis of the deposited data

How the results depend on the processing

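The calls for EIF4EBP2, EIF4G2, EIF4A2, EIF4B, EIF4E2 and EIF6 held in all 15 alternatives. The 8 called members became 6 to 10 with 1 library left out (2 to 4 higher, 4 to 6 lower), and 13 with limma voom on the recovered reads, 7 of them higher, an alternative chosen after seeing the data. Calls over all genes also moved, from 2380 to between 1341 and 1945 of 12676 with 1 library left out, and to 1254 of 29816 with no filter. The 12 called regulators became 7 with no filter, and 7 to 11 with 1 library left out, with 7 without replicate 2 or 3 of si-NC or replicate 3 of si-circTMEM45A. Median-of-ratios scaling moved the median of all genes from 0.03 to -0.0019 on the log2 scale and took uncalled genes below 0, EIF3G to -0.026, EIF3I to -0.00821, EIF3M to -0.0167 and EIF4A3 to -0.0248. With 1 library left out, the log2 fold changes of 8 uncalled genes took either sign. They ran from -0.0534 to 0.0130 for EIF1, from -0.0121 to 0.0180 for EIF3A, from -0.0301 to 0.0463 for EIF3G and from -0.0127 to 0.0482 for EIF3I. They ran from -0.112 to 0.0716 for EIF3J, from -0.00426 to 0.0518 for EIF3M, from -0.00616 to 0.0262 for EIF4A3 and from -0.0604 to 0.0973 for EIF5AL1. The cause was not tested. Whether shared replicate numbers pair the libraries is not settled here. Deviations from the group mean over genes had r = 0.026, 0.011 and 0.047 between same-numbered libraries. Between differently numbered libraries r ran from -0.046 to 0.018. Values this small, from 3 libraries per group, cannot decide it. With the replicate block 7 members, 8 regulators and 1720 of all genes were called. At 4 to 17 reads, EIF4EBP3 could not be compared at this depth. Of its 691 exon bases, 507 are also shared on the same strand with the read-through gene ANKHD1-EIF4EBP3, whose part in its level was not tested.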
